A study of Mus musculus with 3 samples.

Results

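Isl1, a homeodomain transcription factor with LIM domains, marks cardiac progenitors. Its occupancy at olfactory receptor (Olfr) and vomeronasal receptor (Vmn) genes was described here from 1 list of Isl1 peaks. Peaks were kept when the gene symbol that the authors assigned, that of the closest transcription start site (TSS), began with Olfr or Vmn. This gave 182 of 14082 distinct peaks, called receptor peaks below, at 160 gene symbols. Of these, 112 peaks belonged to 98 Olfr symbols, 37 to 34 Vmn1r symbols and 33 to 28 Vmn2r symbols.

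The peaks came from ChIP-Seq, the sequencing of DNA that an antibody pulls down with a chromatin protein, in cardiac progenitor cells (CPCs), with 2 Isl1 ChIP samples pulled down with antibody 39.4D5 and 1 input without antibody. The CPCs were obtained by directed differentiation of the mouse embryonic stem cell line E14 Tg(Nkx2-5-EmGFP), which carries a green fluorescent reporter at a cardiac gene, and were collected at day 5. All samples came from this line and carried no gene deletion, so 1 culture model stands behind every value. The list combined both ChIP samples and held positions and gene assignments, with no score or read number, so sequencing depth is unknown and no replicate error can be given.

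Olfactory receptors are G protein-coupled receptors for odorants, of which each olfactory neuron normally expresses 1. Vmn1r and Vmn2r genes encode the receptors of vomeronasal neurons for pheromones and related cues, and Vmn2r receptors have a long extracellular domain. The genes lie in tandem arrays on many chromosomes and are used mainly in sensory neurons. Mouse receptor arrays are also rich in interspersed repeats such as LINE-1 elements, whose promoters consist of short units repeated in tandem. Expression was not measured in these files, so the silence of the receptor genes in the CPCs was not checked.

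Most receptor peaks lay on repeated sequence. The sequence under a peak was called multi-copy when the 31-base words (31-mers) of its central 200 bp occurred a median of at least 2 times in the mm9 genome on either strand. This held for 171 of 182 receptor peaks (94.0%, 95% Wilson interval 89.5% to 96.6%), against 46.5% of all peaks in the list and 81.0% of the other peaks more than 10 kb from a TSS (5727 of 7073). Among the 3232 other peaks beyond 100 kb it was 90.2%, inside the receptor interval, with a median of 773 copies. Intervals here and below cover counting error in this list only, and receptor peaks with shared sequence are not independent. With 31-mers linking the peaks, 137 of the 182 fell into 3 sequence groups of 66, 42 and 29 peaks, in which each peak shared at least 100 31-mers with another of its group.

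The repeat unit of each group is shown because it carries this pattern. Units are read from mm9 in the direction of the longer repeated element described below, each starts with the 31-mer found in most peaks of its group, and capitals mark TAAT or its reverse complement ATTA, the core of homeodomain sites.
Group 1, Olfr1274-ps peak, chr2:90214251-90214462, plus strand: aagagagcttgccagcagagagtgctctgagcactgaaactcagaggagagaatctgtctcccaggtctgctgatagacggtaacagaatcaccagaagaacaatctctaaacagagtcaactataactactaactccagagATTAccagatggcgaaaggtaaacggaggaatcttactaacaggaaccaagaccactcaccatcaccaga
Group 2, Vmn2r-ps159 peak, chrX:122231726-122231933, plus strand: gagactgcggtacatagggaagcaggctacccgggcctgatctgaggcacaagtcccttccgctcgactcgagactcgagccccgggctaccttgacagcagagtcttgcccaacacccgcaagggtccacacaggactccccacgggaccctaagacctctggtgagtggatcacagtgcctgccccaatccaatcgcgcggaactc
Group 3, Olfr631 peak, chr7:111070824-111071029, plus strand: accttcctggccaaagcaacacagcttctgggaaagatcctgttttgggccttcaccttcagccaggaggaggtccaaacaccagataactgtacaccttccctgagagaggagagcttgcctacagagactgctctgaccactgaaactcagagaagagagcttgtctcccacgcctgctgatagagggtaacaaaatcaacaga
The first unit holds 1 ATTA and 3 CG dinucleotides in 212 bases, the second no TAAT or ATTA and 12 CG in 208 bases, and the third no TAAT or ATTA and 1 CG in 206 bases. The unit of group 3 came from a peak chosen after the groups were seen.

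The leading 31 bases of these units recurred across receptor loci and across the rest of the list. Each was picked as the commonest of its group, so a high share inside the group was set by that choice. Those of group 1 were found in 55 of its 66 peaks and in 1580 peaks at other genes (11.4% of 13900). Those of group 2 were found in 41 of 42 peaks and in 824 other peaks (5.93%), and those of group 3 in 24 of 29 and in 449 (3.23%). Over all 182 receptor peaks, the 3 words were found in 55 (30.2%), 41 and 24. The same sequences thus underlay receptor peaks and many peaks elsewhere. Shared sequence of at least 100 31-mers with some receptor peak was seen for 140 of 182 receptor peaks (76.9%) and for 3391 of 7073 other peaks beyond 10 kb (47.9%). It was seen for 59.0% of other multi-copy peaks beyond 10 kb and for 62.5% of other peaks beyond 100 kb.

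Inside most of the peaks, the units stood in tandem. The period of a peak was taken as the commonest distance between successive copies of the same 15-base word. It was counted when at least 30 words gave a distance of 190 to 220 bp. A wider peak holds more words, so the call also depends on width. A period was found in 120 of 182 receptor peaks (65.9%, interval 58.8% to 72.4%), against 22.9% of all peaks, 42.5% of other peaks beyond 10 kb (interval 41.4% to 43.7%) and 55.2% of those beyond 100 kb (53.5% to 56.9%). It was found in 74 of 112 Olfr peaks, 25 of 37 Vmn1r peaks and 21 of 33 Vmn2r peaks, so each receptor family had it in a similar share, from 63.6% to 67.6%. A period was counted for 63 of 66 peaks in group 1 and 42 of 42 in group 2, but for only 15 of 29 in group 3. Among the peaks with a counted period, the periods separated the groups. Group 1 had 212 bp in 50 peaks and 214 bp in 13, group 2 mainly 208 bp in 30 and 201 bp in 7, and group 3 had 204 bp in 9 and 206 bp in 6.

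**Figure D1:**
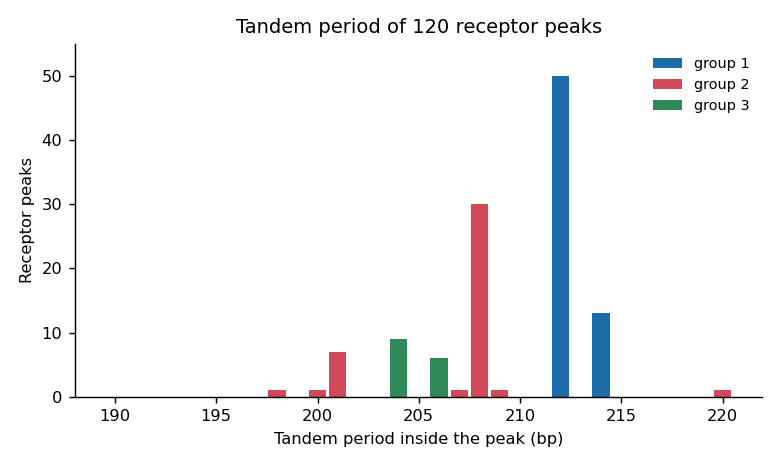
Tandem period inside the peak (x axis, bp) of the 120 receptor peaks that had one, as stacked counts of peaks coloured by sequence group. Group 1 fills 212 and 214 bp, group 2 mostly 208 bp and group 3 the 204 and 206 bp bars, with no overlap between groups at these values.

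The peaks sat at one end of a longer repeated stretch. Copy number was taken in windows of 200 bp every 500 bp up to 8 kb to either side, with the peaks of a group turned to a common strand by their shared 31-mers and the whole group then turned so that the repeated side lay to the right. In group 1, all 66 windows were multi-copy at 1 kb, 2 kb and 5 kb to the right, 98.5% at 6 kb and 34.8% at 6.5 kb. To the left, 39.4% were multi-copy at 1 kb and 34.8% at 2 kb. Group 2 fell from 100% at 6 kb to 40.5% at 7 kb on the right and stood at 33.3% at 2 kb on the left. Group 3 fell from 89.7% at 6 kb to 31.03% at 7 kb on the right and stood at 34.5% at 2 kb on the left. The right side was thus multi-copy for about 6 kb from the peak midpoint in each group, and the left side, apart from the window at 0.5 kb, was near the level found beyond that stretch. The median copy number rose inside the stretch, from 1922.5 at the midpoint to 11858.5 at 5 kb in group 1, from 2185.5 to 11790.8 in group 2 and from 128 to 10336 in group 3. No repeat annotation was used, so the family of these elements was not named.

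**Figure D2:**
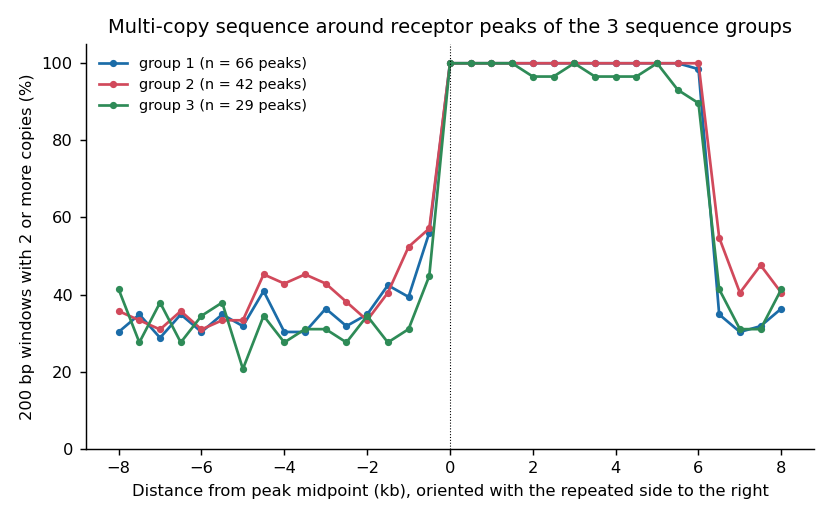
Share of 200 bp windows with 2 or more copies (y axis, %) against distance from the peak midpoint (x axis, kb), for the receptor peaks of the 3 sequence groups, with the repeated side of each group to the right. All 3 lines stand between 20.7% and 57.1% left of the midpoint, at 89.7% or more from 0 to 6 kb and between 30.3% and 54.8% from 6.5 kb on.

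Across all 182 receptor peaks, which were not turned, 100 (54.9%) had multi-copy sequence on exactly 1 side at 2 kb, 54 on both sides and 28 on neither. Among other multi-copy peaks beyond 10 kb the share with exactly 1 such side was 54.1% (interval 52.8% to 55.4%), within the interval for receptor peaks (47.7% to 62.0%). Both sides were multi-copy for 29.7% of receptor peaks (interval 23.5% to 36.7%) against 14.8% of those peaks, and neither side for 15.4% against 31.1%. The direction of the elements had no fixed relation to that of the receptor genes. The element ran along the strand of the assigned gene in 32 of 64 group 1 peaks with a gene strand in the annotation, in 19 of 39 of group 2 and in 16 of 28 of group 3.

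The groups were spread over the receptor families and the genome. Group 1 held 44 Olfr, 13 Vmn1r and 9 Vmn2r peaks on 13 chromosomes. Group 2 held 22, 10 and 10 peaks on 12 chromosomes, and group 3 held 20, 3 and 6 peaks on 12 chromosomes. A further 3 peaks formed a group of their own, and 42 shared fewer than 100 31-mers with every other receptor peak. These unlinked peaks were narrower, with a median width of 657 bp against 1125.5, 1259 and 1124 bp in groups 1 to 3. Linking counts shared words over the whole peak, so a narrow peak has fewer to share and linking depends on width. Of the unlinked peaks, 31 were still multi-copy.

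Copy numbers ranged widely. The median over receptor peaks was 851.5 copies, with quartiles at 71.5 and 2209, against 1 copy for the other peaks and 291.5 for other peaks beyond 10 kb. By family the median was 864.2 copies for Olfr, 1491 for Vmn1r and 495 for Vmn2r. At least 1000 copies were found for 87 receptor peaks (47.8%, interval 40.7% to 55.03%). This compares with 19.8% of all peaks and 36.1% of other peaks beyond 10 kb. The share among other peaks beyond 100 kb, 45.2%, lay inside the receptor interval. Among receptor peaks the highest value, 55587 copies, belonged to an Olfr1507 peak at chr14:53453173-53453662. With words of 75 bases in place of 31, 67.0% of receptor peaks were multi-copy (interval 59.9% to 73.4%), against 50.6% of other peaks beyond 10 kb. For other peaks beyond 100 kb it was 61.2%, inside the receptor interval. How the aligner distributed reads among equal positions was not tested, so a peak on such sequence may not mark the exact copy from which the fragments came.

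**Figure D3:**
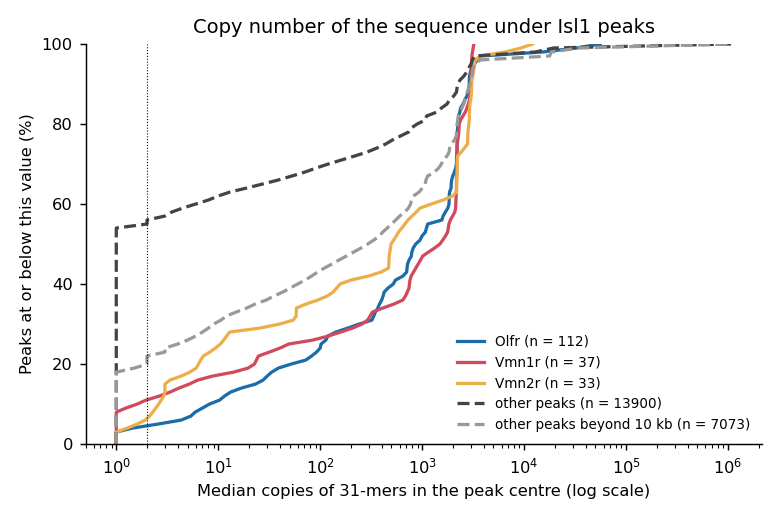
Cumulative share of peaks (y axis, %) against the median copy number of the 31-mers in the peak centre (x axis, log scale), for the 3 receptor families (solid lines), other peaks and other peaks beyond 10 kb (dashed lines); the dotted line marks 2 copies. The family medians lie at 864.2, 1491 and 495 copies, right of both dashed lines.

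Few receptor peaks lay at the start sites themselves. By the authors' distances, 2 of 182 receptor peaks (1.10%, interval 0.302% to 3.92%) lay within 1 kb of the TSS, against 38.9% of the other peaks. Between 1 and 10 kb there were 60 (33.0%), between 10 and 100 kb 112 (61.5%) and beyond 100 kb 8 (4.40%). For the other peaks these shares were 10.2%, 27.6% and 23.3%. Receptor peaks were therefore concentrated at middle distances, with 65.9% beyond 10 kb (interval 58.8% to 72.4%), against 51.1% of all peaks. The side made little difference, since 90 receptor peaks (49.5%, interval 42.3% to 56.7%) lay upstream of the TSS. Upstream lay 35.6% of all peaks and 46.8% of other peaks beyond 10 kb, the latter inside the receptor interval.

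The families differed in distance. The median was 10254 bp for Olfr, 17351 bp for Vmn1r and 26079 bp for Vmn2r peaks. Beyond 10 kb lay 51.8% of Olfr peaks (interval 42.6% to 60.8%), 78.4% of Vmn1r peaks (62.8% to 88.6%) and 33 of 33 Vmn2r peaks, the closest of which was 11434 bp away. The stretch closest to the TSS of a gene also differed in this order, with a median of 22.1 kb for Olfr, 36.7 kb for Vmn1r and 84.7 kb for Vmn2r genes in the GENCODE annotation. Its part in the distances was not tested. Between 1 and 10 kb, with median distances of 5582 and 4471 bp, 58 of 60 receptor peaks were multi-copy (96.7%, interval 88.6% to 99.1%), against 35.9% of 1413 other peaks (33.4% to 38.4%).

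**Figure D4:**
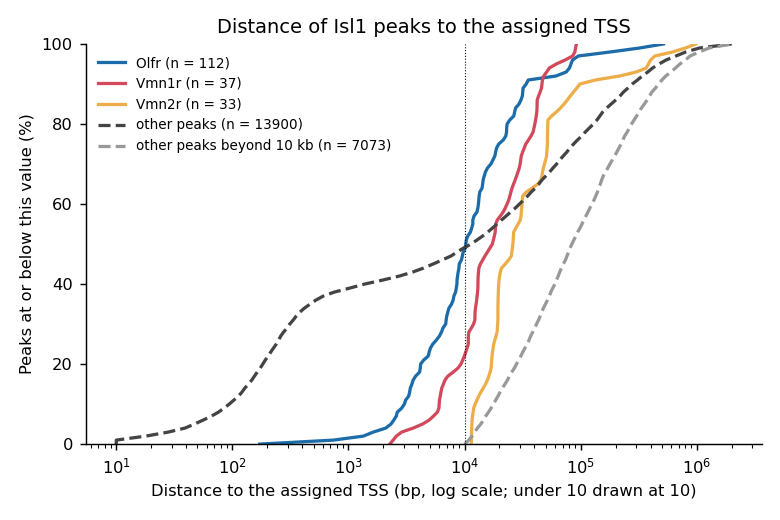
Cumulative share of peaks (y axis, %) against distance to the assigned TSS (x axis, bp, log scale), for the 3 receptor families, other peaks and other peaks beyond 10 kb; the dotted line marks 10 kb. Other peaks reach 38.9% by 1 kb, where the receptor families are at or near 0, and the families rise in the order Olfr, Vmn1r, Vmn2r.

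Of the 2 peaks within 1 kb, the first lay 172 bp upstream of Olfr54 at chr11:50840146-50840522 and was single-copy, with a width of 376 bp. The second lay 673 bp upstream of Olfr822 at chr10:129510484-129511106, with a median of 139 copies and a width of 622 bp. No receptor peak had its midpoint in an exon, coding or untranslated, against 31.9% of the other peaks. The exon share was 5.03% for other peaks beyond 10 kb and 1.07% for other multi-copy peaks beyond 10 kb. Introns held 17 receptor midpoints (9.34%, interval 5.91% to 14.4%), against 27.5% of all peaks and 30.1% of other peaks beyond 10 kb. Intergenic sequence held 165 (90.7%), against 41.1% and 64.9%. Of the intronic ones, 9 were Vmn2r peaks, among them 2 in introns of Vmn2r27 and 1 in an intron of Vmn2r77, in a family whose genes have several coding exons.

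The 11 single-copy receptor peaks were assigned to Olfr54, Olfr1419, Olfr806, Vmn1r42, Olfr1372-ps1, Vmn2r77, Vmn2r89, Vmn1r78, Vmn1r185, Vmn1r3 and Olfr266. They were narrower than the multi-copy receptor peaks, with a median of 715 bp (range 337 to 977 bp) against 1108 bp. Beyond 10 kb lay 8 of them (72.7%, interval 43.4% to 90.3%), an interval that holds the 51.1% of all peaks. Mean GC content of the 11 over the central 200 bp was 60.9% ± 12.2 (SD, n = 11 peaks), from 41% for Olfr806 to 76% for Olfr1372-ps1. None of the 11 had a neighbouring peak within 10 kb (interval 0% to 25.9%), and that interval holds the 13.7% of all peaks. The centres of the 2 single-copy receptor peaks closest to a TSS are shown because most of their 31-mers occur at 1 place in the genome. They are read on the plus strand.
Olfr54, chr11:50840235-50840434: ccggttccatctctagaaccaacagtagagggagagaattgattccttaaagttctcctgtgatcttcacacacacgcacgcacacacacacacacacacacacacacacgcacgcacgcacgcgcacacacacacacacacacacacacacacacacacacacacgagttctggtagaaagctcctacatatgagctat
Olfr1419, chr19:11943328-11943527: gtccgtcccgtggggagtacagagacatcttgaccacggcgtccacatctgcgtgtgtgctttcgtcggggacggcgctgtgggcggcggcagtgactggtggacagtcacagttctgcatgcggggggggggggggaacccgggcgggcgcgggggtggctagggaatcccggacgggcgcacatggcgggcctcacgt
The Olfr54 centre holds a run of CA dinucleotides and no TAAT or ATTA, so the single-copy class still includes simple repeats. The Olfr1419 centre holds 21 CG dinucleotides and no TAAT or ATTA, and its peak lay 2277 bp downstream of the TSS.

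The central 200 bp of each peak was searched, on either strand, for strings of homeodomain type. CTAATTG and CTAATGG were in 0 of 182 receptor centres each, and in 0.192% and 0.220% of all peaks. With 182 centres, a count of 0 allows a share of up to 1.65%. TAAT, which is part of both strings, was in 64 receptor centres (35.2%, interval 28.6% to 42.3%), against 19.4% of all peaks, 30.4% of other peaks beyond 10 kb and 36.6% of those beyond 100 kb. Its presence followed the sequence groups, with 54 of 66 peaks in group 1, 0 of 42 in group 2 and 1 of 29 in group 3, and of the units printed above only that of group 1 holds it. In the windows 2 kb away TAAT was more frequent, in 84.1% on the side of lower coordinates and 89.6% on the other. Mean GC content there was 39.4% ± 4.67 against 62.5% ± 6.17 in the centres (SD, n = 182 peaks). All peaks showed the same pattern, with TAAT in 72.0% and 72.3% of these windows. Their mean GC content was 43.6% in the windows and 66.6% in the centres. The GATA-type string TGATAA was in 1 receptor centre and in 0.518% of all peaks.

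Receptor peaks were somewhat wider than the rest. Their median width was 1063.5 bp, with quartiles at 800.5 and 1339.5 bp and extremes of 272 and 2853 bp, against a median of 946 bp for other peaks and 923 bp for other multi-copy peaks beyond 10 kb. By family the median was 993 bp for Olfr, 1105 bp for Vmn1r and 1152 bp for Vmn2r. Widths of at least 2000 bp were found for 2 receptor peaks (1.10%, interval 0.302% to 3.92%), an interval that holds the 3.12% of other peaks. The widest receptor peaks were at Vmn1r48 (2853 bp, chr6:89983139-89985992), Olfr478 (2250 bp), Vmn1r57 (1959 bp), Vmn1r45 (1917 bp) and Olfr384 (1894 bp), and each was multi-copy. Of these, 4 belonged to sequence groups 1 or 2. The narrowest were at Vmn1r227 (272 bp), Olfr806 (337 bp), Olfr843 (353 bp), Olfr54 (376 bp) and Olfr1243 (449 bp). Of these 5, 4 were unlinked, but narrow peaks have fewer words with which to be linked.

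Although the genes lie in arrays, the peaks seldom stood next to each other. Another peak lay within 10 kb, edge to edge, for 10 of 182 receptor peaks (5.49%, interval 3.01% to 9.82%), against 13.7% of all peaks and 8.27% of other peaks beyond 10 kb (interval 7.65% to 8.94%). All 10 had another receptor peak as that neighbour. Within 50 kb the share was 33.0% (interval 26.6% to 40.1%), against 46.8% of other peaks and 39.2% of other peaks beyond 10 kb. At both limits the share of other peaks beyond 10 kb lay inside the receptor interval. The 5 closest pairs were at Olfr1505 (217 bp apart), Olfr585 (2450 bp), Olfr59 (3311 bp), Vmn2r27 (5215 bp) and Vmn1r64 (5462 bp). Both peaks of each pair had the same assigned gene and shared 0 31-mers. The paired peaks belonged to groups 3 and 2 at Olfr1505, groups 2 and 1 at Olfr585 and at Olfr59, and groups 3 and 1 at Vmn1r64, while at Vmn2r27 a group 1 peak stood beside an unlinked one.

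Few receptor genes had more than 1 peak. At least 2 peaks were found for 17 of 1463 protein-coding receptor genes (1.16%), against 11.0% of all protein-coding genes. Among genes with a peak these were 17 of 155 and 2323 of 8216. Of 160 symbols, 142 had 1 peak, 14 had 2 and 4 had 3, namely Olfr1323, Olfr1505, Olfr165 and Vmn2r-ps159. The 3 peaks of Olfr1323 on chromosome X belonged to groups 1, 3 and 2 and lay 11786 bp downstream and 73782 and 201757 bp upstream of the TSS. Those of Vmn2r-ps159 lay 363739, 413979 and 982542 bp upstream, the last of which was the farthest receptor peak. Of the genes with 2 peaks, the first in alphabetical order were Olfr1257, Olfr1350, Olfr1355, Olfr1457, Olfr1507 and Olfr266. Each of these 10 genes had peaks that differed in sequence group or in being linked.

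Per gene, receptor loci were occupied less often than other genes. Of 1463 protein-coding receptor genes, 155 (10.6%, interval 9.12% to 12.3%) had an assigned peak, against 39.1% of all protein-coding genes and 41.2% of those that are not receptors. The share was 8.57% for Olfr, 14.7% for Vmn1r and 21.0% for Vmn2r. A peak within 10 kb of the TSS was found for 4.03% of receptor genes (interval 3.14% to 5.17%), against 30.1% of other protein-coding genes. Because the closest-TSS rule gives more peaks to genes with more surrounding sequence, peaks were also set against that length. Receptor genes had 2.92 peaks per Mb (exact Poisson interval 2.51 to 3.38) in 62.3 Mb, and other protein-coding genes 5.36 per Mb (5.27 to 5.45), a ratio of 0.545. The latter rate counts all 13900 other peaks, also those that the authors assigned to noncoding genes. With every peak assigned to its closest protein-coding TSS of GENCODE the ratio was 0.539.

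The deficit was found for single-copy peaks. Multi-copy peaks had a density of 2.74 per Mb at receptor genes (interval 2.35 to 3.19) and 2.46 per Mb at other genes (2.40 to 2.52), a ratio of 1.12, and the interval at receptor genes held the value of the other genes. Single-copy peaks had 0.177 per Mb (0.0881 to 0.316) against 2.90 per Mb (2.84 to 2.97), a ratio of 0.0608. Of the single-copy peaks at other genes, 6182 of 7528 lay within 10 kb of the TSS. Peaks beyond 10 kb, set against the same lengths, had 1.93 per Mb (1.60 to 2.30) against 2.73 (2.66 to 2.79), a ratio of 0.706. How far the single-copy ratio restates the lack of receptor peaks near start sites was not tested.

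On the genome, receptor genes of the GENCODE annotation were joined into clusters where gaps were at most 1 Mb, and 30 clusters held at least 10 genes. Of these, 28 had a receptor peak. They spanned 57.7 Mb and held 137 receptor peaks and 74 other peaks, with a median density of 2.48 receptor peaks per Mb. The largest by genes, chr2:85171054-90241831 with 268 genes, held 12 receptor peaks and 0 other peaks, all 12 of them multi-copy. The longest, chr7:5097820-13829711 with 57 Vmn1r, 43 Vmn2r and 8 Olfr genes, held 18 receptor and 16 other peaks. Density was highest at chr10:128426905-129934435 with 5.97 per Mb and chr11:73164341-74179111 with 5.91 per Mb. The 2 clusters without receptor peaks were chr4:118338124-118607445 with 15 genes and chr11:58268417-59427727 with 25 genes, and the latter held 12 peaks of other genes. By chromosome, 55 receptor peaks lay on chromosome 7, 21 on 6 and 18 on 2, and 0 on 8, 12 and Y.

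**Figure D5:**
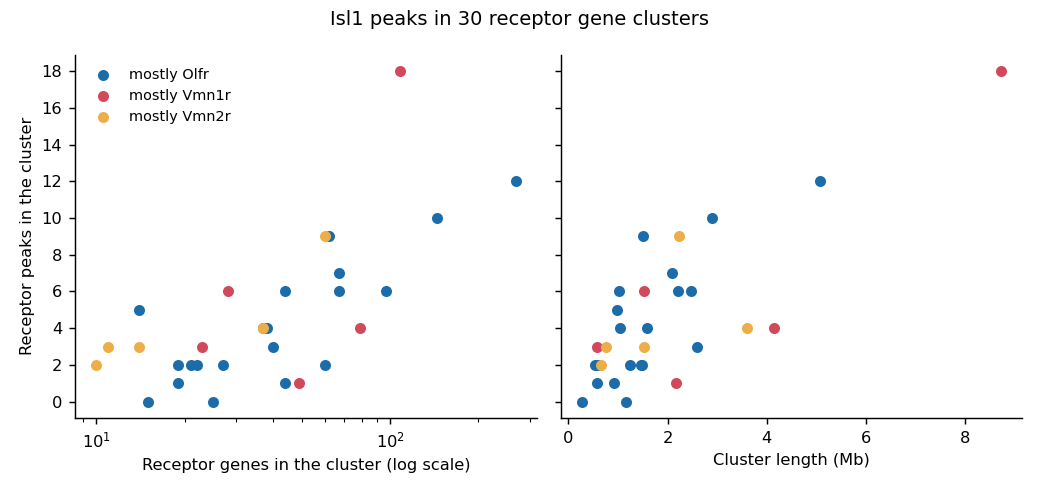
Receptor peaks per cluster (y axis) against the number of receptor genes (left, log scale) and the length in Mb (right), with 1 point for each of 30 clusters, coloured by the family with most genes. The highest points are a mostly Vmn1r cluster with 18 peaks over 8.73 Mb and an Olfr cluster with 12 peaks over 5.07 Mb.

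Other receptor and tandem families were described in the same way. Among 80 other chemosensory receptor genes (Taar, Tas1r, Tas2r, Fpr and Ms4a), 10 (12.5%, interval 6.93% to 21.5%) had a peak, and 13 of 13 peaks were multi-copy, against 39.1% of all protein-coding genes and 46.5% of all peaks. Taste receptors had peaks at 6 of 38 genes and trace amine receptors (Taar) at 0 of 15, which allows a share of up to 20.0%. Among 120 genes of other tandem families, the beta-defensins (Defb), keratin-associated proteins (Krtap) and major urinary proteins (Mup), 24 (20.0%, interval 13.8% to 28.04%) had a peak and 20 of 26 peaks were multi-copy (76.9%). These families differed among themselves, with a peak at 5 of 42 Defb, 11 of 56 Krtap and 8 of 22 Mup genes, and a peak within 10 kb at 1, 10 and 0 genes.

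Genes that act in olfactory neurons but lie outside the arrays had another pattern. Of 39 genes for olfactory signalling, receptor choice and olfactory neuron identity, 25 had a peak (64.1%, interval 48.4% to 77.3%), against 39.1% of all protein-coding genes. A peak within 10 kb was found for 21 (53.8%, interval 38.6% to 68.4%), against 28.3%, and within 1 kb for 19, against 24.2% of all. Of their 42 peaks, 31 were single-copy (73.8%, interval 58.9% to 84.7%), against 53.5% of all peaks, and mean GC content was 67.7% ± 10.3 (SD, n = 42 peaks). Many of these genes also act in other tissues, so the list is not one of olfactory neurons alone.

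By role, with distances downstream of the TSS unless stated, peaks within 1 kb were at the signalling genes Gnal (184 bp), which encodes the olfactory G protein alpha subunit, Adcy3 (64 bp), the adenylyl cyclase of the odour response, Slc24a4 (386 bp upstream), Ric8b (77 bp), Gnai2 (27 bp upstream) and Gnao1 (11 bp). Among regulators of receptor choice they were at Lhx2 (87 bp), a LIM-homeodomain factor, Ldb1 (28 bp), the cofactor of LIM domains, Lbr (51 bp), a nuclear envelope protein that holds heterochromatin, Kdm1a (238 bp), a histone demethylase, Emx2 (792 bp) and Ebf4 (454 bp upstream). Ebf3 had 4 peaks within 10 kb, the closest 433 bp downstream, and Ebf1 had 1 at 3469 bp upstream. Among neuronal identity factors, Neurog1 (221 bp), Tfap2e (645 bp) and Bcl11b (503 bp upstream) had single-copy peaks within 1 kb, and the Dlx5 peak 237 bp upstream had a median of 12451 copies. No peak was assigned to 14 of the genes, among them Omp, the olfactory marker protein, the channel subunits Cnga4 and Cngb1, the vomeronasal channel Trpc2, and Rtp2 and Reep1, which help receptors reach the membrane.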

How the data were processed

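The authors deposited 1 peak list for both Isl1 ChIP samples, with start, end, distance to the closest TSS in bp and gene assignment. Per its methods, the study mapped reads to mm9 with bowtie2 at default settings, took out duplicates with Picard 1.136, called peaks with MACS14 at p 1e-08 without a fragment model, dropped blacklisted regions, kept areas shared by the replicates (bedtools 2.15) and took the closest TSS from HOMER. These deposited values are positions, with no intensity. Read length and the number base of the starts are not given in the sources used here, so starts are uncertain by 1 bp; sequences were read with starts counted from 0 and are given 1-based.

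Identical lines were counted once (14165 lines, 14082 peaks; 0 repeats among receptor peaks). Sequence came from the NCBI m37 genome (mm9), gene positions from GENCODE M1 on it, and names and classes from RefSeq (GRCm38.p6), without coordinates; 159 of 160 receptor names matched. Protein-coding genes are those with a curated transcript. Genome-wide word counts and periods were checked on simulated data. Members, gene lists and naming rules were chosen with earlier results of these data known. Named genes are those with a peak within 1 kb, most peaks, the widest, narrowest, closest-paired, single-copy or most shared peaks, and pathway genes with a peak within 10 kb; some genes and 1 sequence that these rules select are not reported here. The sequence groups and tandem periods were added after seeing the data. Shares carry 95% Wilson intervals, rates exact Poisson intervals; no chance test over regions was run. Python packages were numpy, pandas, scipy and numba.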

Additional observations from a re-analysis of the deposited data

How the results depend on the processing

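No paired analysis was possible because the list combines both replicates, and leaving out each replicate was not possible for the same reason; the strength of each peak and the reproducibility of the set are unknown. Of 62 alternative values, 39 stayed within the error or within 1.5 times the count as reported, and 23 moved. A change of direction was not checked. Counting every line, a minimum width of 500 bp, merging within 1000 bp and the closest GENCODE TSS moved none of the 7 planned results. Counting every line could hardly move them, because no receptor peak was on a repeated line. Families differed: with Olfr alone and Vmn alone there were 112 and 70 peaks, 51.8% and 88.6% lay beyond 10 kb, and 8.57% and 16.9% of genes had a peak, and the median width with Vmn alone was 1140 bp. Single-copy peaks alone left 11 peaks, of which 72.7% lay beyond 10 kb, with a median width of 715 bp, 0% with a neighbour within 10 kb, 0.684% of receptor genes with a peak and a density ratio of 0.0608; the share on multi-copy sequence is then undefined. Other limits gave 4.40% beyond 100 kb, 98.9% beyond 1 kb, and a neighbour for 33.0% within 50 kb and 55.5% within 100 kb. Multi-copy shares were 67.0% with 75-mers and 85.2% at 10 or more copies, against 61.2% and 81.8% of other peaks beyond 100 kb. At least 2 peaks were found for 1.16% of receptor genes and a peak within 10 kb for 4.03%, against 11.0% and 28.3% of all protein-coding genes. Linking peaks by at least 20 or at least 1 shared 31-mer was chosen after seeing the data. It joined the 3 groups into 1 of 139 or 166 peaks, so only the limit of 100 gave 3 large groups. The 3 largest groups then held 83.0% and 94.0% of receptor peaks, in place of 75.3%. The number of unlinked peaks fell from 42 to 24 and 11.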
